A study of Drosophila melanogaster with 2 samples.

Results

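The genes of the Drosophila dosage compensation complex are described here by the binding of the homeodomain protein OdsH in whole Drosophila melanogaster larvae. There were 8 genes, chosen by name and not by any measured value: msl-1, msl-2, msl-3, mle, mof, Clamp, lncRNA:roX1 and lncRNA:roX2. They were 8 of the 18164 genes annotated on the 6 chromosome arms, transposable elements left aside. All were wandering larvae of the third instar, from the OdsH-GFP strain, which carries a stable transgene with GFP fused to the C terminus of OdsH, and anti-GFP was used to precipitate the chromatin. They form 1 group of 2 biological replicates, no untreated or untagged sample was analysed here, and the sex and age of the larvae were not recorded in the labels. The dosage compensation complex works in males, so the mixture of sexes behind each value is unknown. The labels do not give the promoter that drives the transgene, nor its level relative to the endogenous gene.

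In Drosophila males, the MSL complex raises transcription of genes on the X chromosome. MSL1 is its scaffold, MSL2 a RING finger protein that is made in males and brings the complex to its entry sites, and MSL3 a chromodomain protein that reads histone methylation over active genes. MOF acetylates histone H4, and MLE is an RNA helicase that remodels the noncoding RNAs roX1 and roX2 so that they can join the complex. CLAMP is a zinc finger protein that binds GA-rich sequence and helps the complex onto the X. Both roX genes lie on the X themselves and carry GA-rich entry sites of the complex.

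OdsH-GFP peaks passed the study's threshold inside or within 5 kb of 4 of the 8 genes, as they did for 56.2% of all coding genes and 44.2% of all ncRNA genes. At 2 of the 4, Clamp and roX1, the peak lay at the gene's own start site, within 500 bp, as it did for 24.1% of coding and 9.51% of ncRNA genes. At mof and roX2 the thresholded summits lay nearest to the start sites of neighbouring genes. No thresholded summit lay inside or within 5 kb of msl-1, msl-2, msl-3 or mle, although the summit at the start of msl-1 missed the threshold by 16 ranks. Thresholded here means a peak of the list that the authors cut on the irreproducible discovery rate. The signal of a peak is the authors' own value, on a scale that is not stated.

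Reference sequence is shown for the roX summits because the strongest pooled summit inside each roX gene held the same 13 bases. The windows below run 50 bp to either side of the summit on the plus strand of the dm6 reference, as held by RefSeq, with the shared bases in capitals. The first is chrX:3862436-3862536, at the start of roX1, and the second chrX:11580341-11580441, at the far end of roX2.
roX1 start: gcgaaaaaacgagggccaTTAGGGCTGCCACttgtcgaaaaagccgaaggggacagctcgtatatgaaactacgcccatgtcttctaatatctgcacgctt
roX2 end: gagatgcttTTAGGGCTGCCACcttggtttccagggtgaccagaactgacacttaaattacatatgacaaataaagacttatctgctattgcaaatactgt

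The run TTAGGGCTGCCAC was found by comparing these 2 windows, so it was chosen after the data were examined, and no test was made of it. Its centre lay 26 bp from the pooled roX1 summit and 35 bp from the pooled roX2 summit. The replicate 2 summit at the roX2 end, at X 11580459, did not hold the run within 50 bp. Both copies read on the plus strand, while roX1 is transcribed from the minus strand and roX2 from the plus strand, so the run faces opposite ways in the 2 genes. On both strands of the 6 arms it occurred 7 times. The 2 copies in the roX genes were the ones with a pooled relaxed summit within 200 bp, and the other 5, with the nearest start sites those of Tbh, HP6, eya, CG44521 and CG17267, had none. Of all 7223 thresholded summits, 2 held the run within 50 bp, and these were the 2 it was taken from. Of 23581 annotated start sites 1 did, and it was a start site of roX1. The summits at both roX copies follow from how the run was found. These counts therefore do not measure a link between the run and binding.

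The next windows are shown for their contrast in composition. They are a relaxed summit in an exon of roX1 (chrX:3861319-3861419, capitals mark GAGAG on either strand), the Clamp summit (chr2L:22168648-22168748) and the strongest thresholded summit near roX2 (chrX:11576698-11576798). In the last pair, capitals mark TAAT on either strand, the core that many homeodomain proteins bind.
roX1 exon: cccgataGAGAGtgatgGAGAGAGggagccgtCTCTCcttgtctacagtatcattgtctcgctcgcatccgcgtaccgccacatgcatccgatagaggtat
Clamp: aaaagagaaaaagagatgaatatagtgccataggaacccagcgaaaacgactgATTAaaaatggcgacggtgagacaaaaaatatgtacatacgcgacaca
Upstream of roX2: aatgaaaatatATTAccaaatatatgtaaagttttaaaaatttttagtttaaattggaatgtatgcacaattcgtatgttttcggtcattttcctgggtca

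The GA-rich window in the roX1 exon held 4 overlapping or separate matches to GAGAG and was 45.5% A and T. It was picked among the relaxed summits inside roX1 for holding GAGAG, so the presence of a match follows from the choice. The window upstream of roX2 was 75.2% A and T, and that at the start of roX1 was 50.5%. Over all thresholded summits the median was 67.3%, with 5% of summits below 47.5% and 5% above 79.2%.

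The roX1 gene (FBgn0019661, 5468 bp, minus strand, X 3857230 to 3862697) had 1 thresholded summit, at X 3862486. It lay in an exon, 211 bp downstream of the outermost roX1 start site and 61 bp upstream of the nearest of the 3 annotated roX1 start sites. The pooled signal was 126, rank 5988 of 7223, and the replicate signals were 52.7 in replicate 1 and 74.7 in replicate 2. Replicate 2 was the higher, by 0.50 on the log2 scale, against a median of 0.26 over 7173 thresholded peaks with a partner in both replicates. In replicate 1 the summit ranked 7229, just past the 7223 strongest peaks of that list, and in replicate 2 it ranked 5484.

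Weaker summits of the pooled relaxed list, which also holds background, lay elsewhere in and near roX1. The summit in the GA-rich exon window, at X 3861369, was 692 bp downstream of the nearest start site and had a pooled signal of 72.8. It was present in replicate 1 with a signal of 36.2 and in replicate 2 with 32.3, so the 2 replicates lay close together there and below the roX1 start summit in each list. A summit 28 bp upstream of the outermost start site had a pooled signal of 70.9, with 56.8 in replicate 2 and no partner in replicate 1. A pair near an internal start site of the neighbouring gene yin had pooled signals of 82.5 and 69.8.

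The roX2 gene (FBgn0019660, 1368 bp, plus strand, X 11579065 to 11580432) had 2 thresholded summits within 5 kb, both nearest to the start of another gene. The stronger, at X 11576748, lay 2317 bp upstream of the roX2 start, 128 bp from the start site of e(y)2, which encodes a subunit of the SAGA and nuclear export complexes, on the side that faces CG11695. Its pooled signal was 249.4, rank 2375, with 127.8 in replicate 1 and 119.8 in replicate 2, so replicate 1 was slightly the higher. In replicate 1 the summit lay at X 11576762 and was nearest to the start of CG11695, 121 bp upstream of it. Peak lists cannot assign this peak to e(y)2 or to CG11695. The other, at X 11580391, lay inside the last stretch of roX2, 1326 bp downstream of its start and 381 bp upstream of the start of nod, which encodes a kinesin-like protein of meiotic chromosomes. It had a pooled signal of 142, rank 5143, with 70.0 in replicate 1 and 80.7 in replicate 2. The replicate 2 summit lay at X 11580459, past the end of roX2 and 313 bp upstream of the nod start. Peak lists cannot assign the pooled summit at X 11580391 to roX2 or to nod.

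At its own start, roX2 had a relaxed summit and no thresholded one. That summit, 300 bp downstream of the start, had a pooled signal of 61.1, with 30.1 and 31.3 in replicates 1 and 2. The replicate 1 summit lay at X 11579495, 430 bp downstream of the start. A further relaxed summit in the roX2 exon, at X 11579576, had a pooled signal of 41.2 and 1 match to GAGAG. Its replicate 1 partner was the same summit of 30.1, and it had no partner in replicate 2.

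The roX boxes, conserved elements of the roX RNAs near which MLE acts, were searched as GTTNTACG on the sense strand of each gene. In roX2 there were 2 matches, 346 and 281 bp before the end of the gene and 309 and 244 bp from the summit near nod. In roX1 there were 3, from 1685 to 1803 bp before the end of the gene, and the nearest pooled relaxed summit was 2333 bp or more away. No thresholded summit window of the 8 genes held GTTNTACG on either strand, against 0.554% of all thresholded summits and 0.679% of start sites. A match of letters is a description and not a site.

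**Figure D1:**
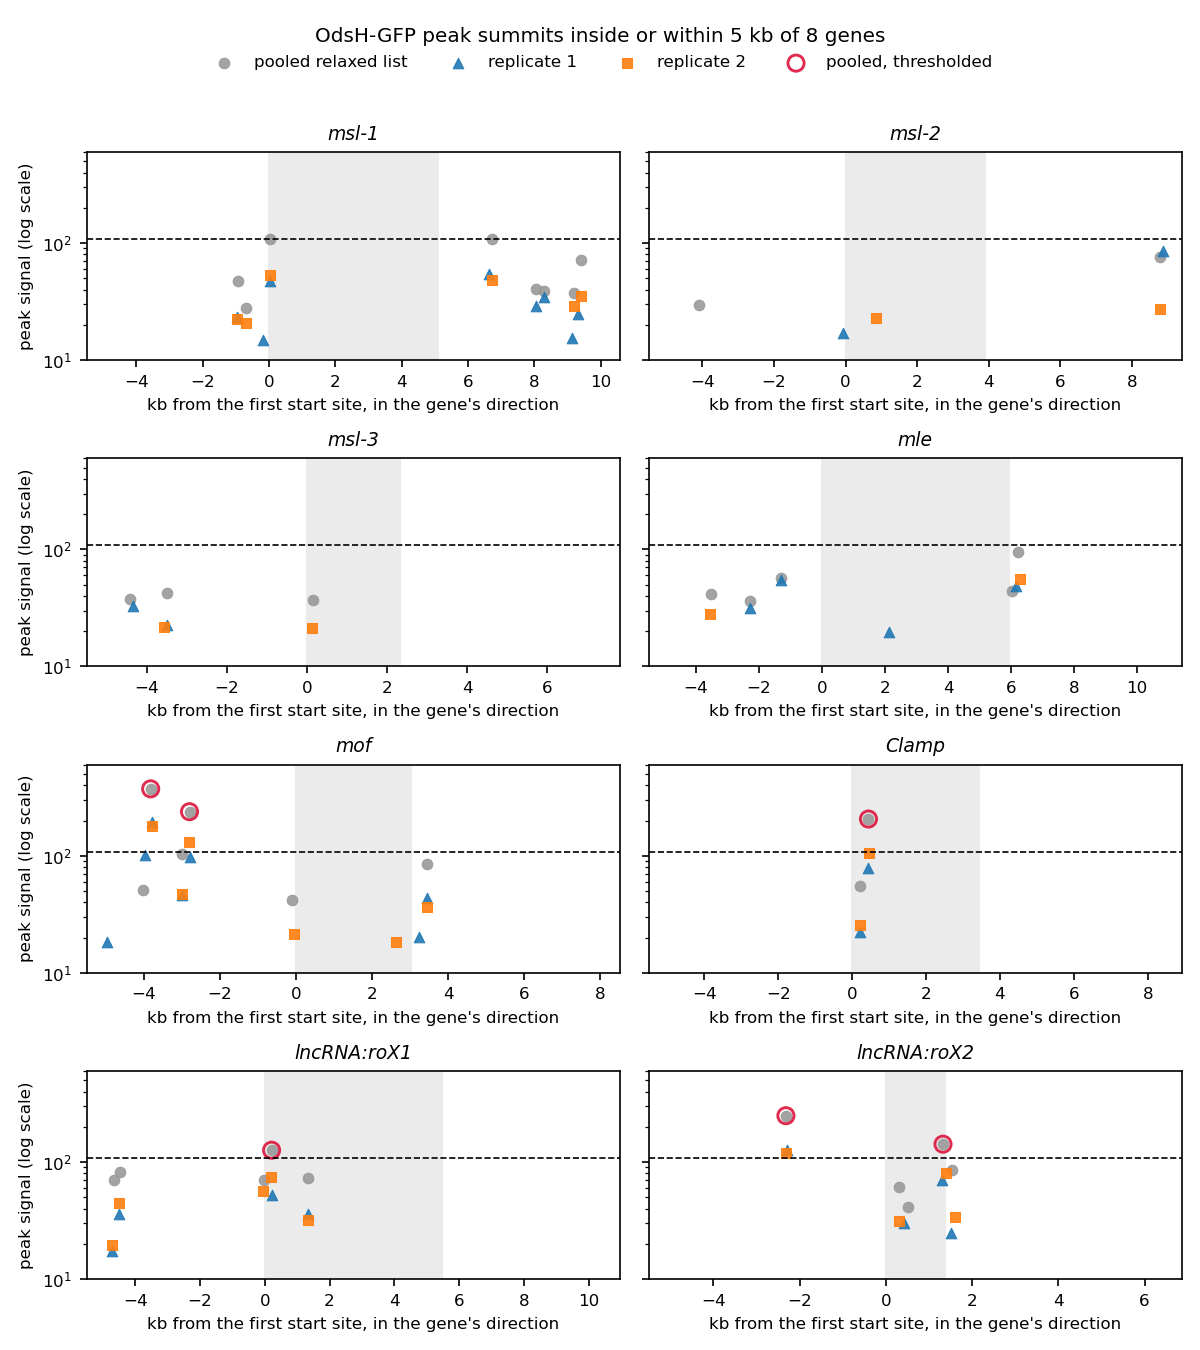
Peak summits inside or within 5 kb of each of the 8 genes. The x axis is the distance in kb from the gene's first start site in its direction of transcription, the shaded band is the gene, and the y axis is the peak signal on a log scale; grey circles are the pooled relaxed list, red rings its thresholded peaks, triangles replicate 1 and squares replicate 2, and the dashed line is the lowest thresholded pooled signal, 108.6, which applies to pooled values only. Rings appear at mof, Clamp, roX1 and roX2, and those of Clamp and roX1 lie close to the gene's start.

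Clamp (FBgn0032979, 3424 bp, minus strand, 2L 22165720 to 22169143) was the coding gene of the 8 with a thresholded summit at its own start site. The peak spanned 2L 22168476 to 22168919 and its summit, at 22168698, lay in an intron of Clamp, 445 bp downstream of the start site. The pooled signal was 206, rank 3152, with 78.9 in replicate 1, where it ranked 4185, and 105.3 in replicate 2, where it ranked 3551. Replicate 2 was higher by 0.42 on the log2 scale. The 2 replicates placed the summit at most 1 bp apart from the pooled one. A weaker relaxed summit at 224 bp downstream of the start had a pooled signal of 55.3, with 22.3 and 25.5 in the replicates. No other relaxed summit lay within 5 kb of Clamp in any of the lists, on either side of the gene.

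The gene of the histone acetyltransferase MOF (FBgn0014340, 3014 bp, minus strand, X 5873840 to 5876853) had the strongest summit within 5 kb of any of the 8 genes, but at another gene. At X 5880670, 3817 bp upstream of the mof start, a summit 136 bp downstream of a start site of CG16721 had a pooled signal of 373, rank 1308, with 195.6 in replicate 1 and 180.6 in replicate 2. At X 5879650, 2797 bp upstream of mof, a summit 32 bp upstream of a start site of Usp30, which encodes a deubiquitinase, had a pooled signal of 238, with 97.0 in replicate 1 and 131.1 in replicate 2. By distance, both summits lay at start sites of these neighbours and not at that of mof. CG16721, transcribed the other way from Usp30, starts at X 5879869, also within 500 bp of the summit at X 5879650. Peak lists cannot assign that summit to Usp30 or to CG16721. At mof itself, 91 bp upstream of its start site, the pooled relaxed list held a summit of signal 42.1, replicate 2 one of 21.5, and replicate 1 none.

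The scaffold gene msl-1 (FBgn0005617, 5081 bp, minus strand, 2L 18683720 to 18688800) had a summit at its start site just below the threshold. The summit, at 2L 18688776, lay 24 bp into the gene, and its pooled signal was 108.4, rank 7239, where the lowest thresholded signal was 108.6. Replicate 1 gave 47.6, rank 8246, and replicate 2 gave 53.0, rank 8203. Both replicates therefore placed it past their 7223 strongest peaks. Beyond the other end of the gene, a summit 12 bp upstream of the start of tos, which encodes an exonuclease, had a pooled signal of 108.3, rank 7251. It had 54.3 in replicate 1, above the msl-1 start summit, and 48.1 in replicate 2, below it.

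At msl-2 (FBgn0005616, 3895 bp, minus strand, 2L 3462218 to 3466112) no summit was shared by the replicates inside the gene or at its start. Between msl-2 and ND-PDSW, a gene of respiratory complex I that is transcribed the other way, lie 44 bp. Replicate 1 had a summit 79 bp upstream of the msl-2 start with a signal of 17.1, rank 26127 of 30000, where the list ends at 14.8. Replicate 2 had one in a coding exon, 851 bp downstream of the start, with a signal of 22.9. The pooled relaxed list had neither. The strongest pooled summit within 5 kb had a signal of 76.5. It lay 33 bp downstream of the start of Sec5, an exocyst gene beyond the far end of msl-2. The strongest replicate summits within 200 bp of it had 85.4 in replicate 1 and 101.6 in replicate 2. The one of 101.6 lay more than 5 kb from msl-2. Within 5 kb, the replicate 2 summit beside the pooled one, at 2L 3457339, had 27.0, rank 16764.

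The chromodomain gene msl-3 (FBgn0002775, 2321 bp, minus strand, 3L 7123213 to 7125533) had a relaxed summit 149 bp downstream of its start, with a pooled signal of 36.8. Replicate 2 held it at 21.2 and replicate 1 did not. The other pooled relaxed summits within 5 kb, with signals of 42.0 and 37.8, lay 115 bp from the start of Acbp6, which encodes an acyl-CoA binding protein, and 192 bp from that of a transposable element of the BS family.

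The helicase gene mle (FBgn0002774, 5922 bp, minus strand, 2R 5974857 to 5980778) had no pooled relaxed summit inside the gene or within 500 bp of its start sites. Its strongest summit within 5 kb had a pooled signal of 94.7, rank 8440, with 49.0 in replicate 1 and 55.4 in replicate 2, and lay 172 bp upstream of the start of BubR1, which encodes a spindle checkpoint protein, beyond the end of mle. On the other side, a summit 246 bp downstream of the start of the kinase gene Src42A had a pooled signal of 57.3 and a replicate 1 signal of 54.4, with none in replicate 2. The summit inside mle, in a coding exon, was in replicate 1 alone, with a signal of 19.7.

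**Figure D2:**
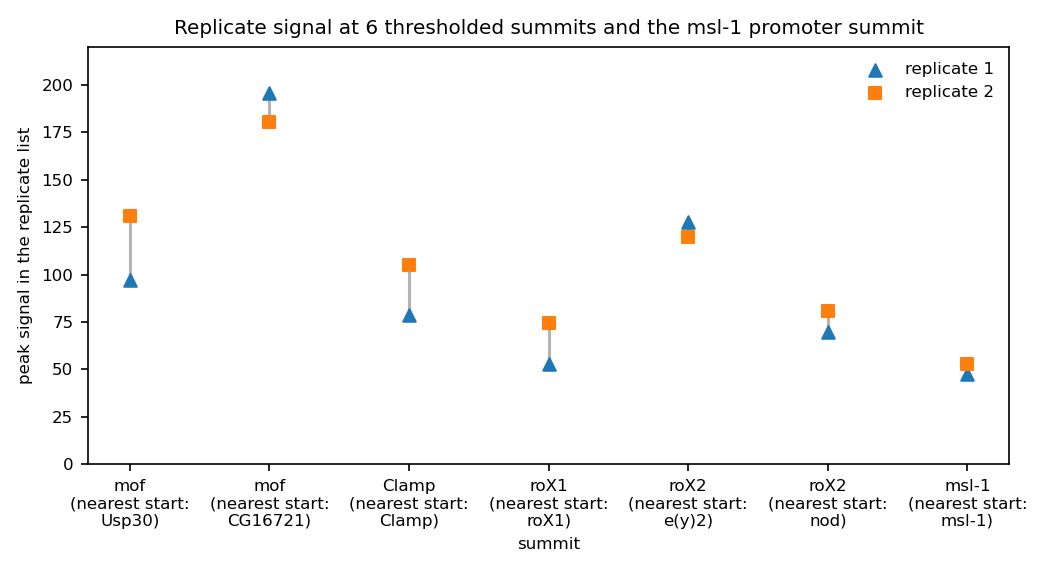
Signal in each replicate at the 6 thresholded summits near the 8 genes and at the msl-1 start summit. Each column is a summit, named by the gene it is near with the gene of the nearest start site in brackets, the y axis is the signal in the replicate's own list, and triangles and squares are replicates 1 and 2; replicate 2 is the higher at Clamp, roX1, the nod end of roX2, msl-1 and Usp30, and replicate 1 is the higher at CG16721 and at e(y)2.

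Ordered by the strongest summit within 500 bp of an own start site, the pooled signals ran from 206 at Clamp through 126 at roX1, 108.4 at msl-1, 61.1 at roX2 and 42.1 at mof to 36.8 at msl-3, with none at msl-2 and mle. Clamp stood above roX1 in both replicates, at 78.9 against 52.7 in replicate 1 and 105.3 against 74.7 in replicate 2. The roX1 signal was above that of msl-1 in both, at 52.7 against 47.6 and 74.7 against 53.0. The msl-1 values were above the 30.1 and 31.3 of roX2 in both replicates. The values of mof and msl-3 rested on replicate 2 alone, at 21.5 and 21.2, and cannot be ordered. With 2 replicates, no test was made of these orders.

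The shares of the 8 genes were read against all genes of the same kind. A thresholded summit lay inside or within 5 kb of 2 of the 6 coding genes, and of 56.2% of all 13945 coding genes. Among the 3586 coding genes in the length range of these 6, from 2321 to 5922 bp, it was 61.4%. Both roX genes had such a summit, against 44.2% of 3261 ncRNA genes. At an own start site, within 500 bp, 1 of the 6 coding genes had a thresholded summit, against 24.1% of coding genes and 30.0% of those in the same length range, and 1 of the 2 roX genes, against 9.51% of ncRNA genes. Counts of 1 and 2 are too few to set the 8 genes apart from these backgrounds.

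In the pooled relaxed list, all 6 coding genes had a summit inside or within 5 kb, against 82.7% of coding genes, and both roX genes, against 72.4% of ncRNA genes. Within 500 bp of an own start site there was a relaxed summit at 4 of the 6 coding genes, against 51.4%, and at both roX genes, against 30.2%. In all, 36 pooled relaxed summits lay near the 8 genes, 27 of them within 500 bp of some start site and 2 in a coding exon, against 34.5% and 1.94% of all 30000. The 36 were picked for lying inside or within 5 kb of these genes and the 30000 were not. The shares are therefore of unlike sets. A partner within 200 bp in both replicates was found for 22 of the 36, against 69.2% of all.

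**Figure D3:**
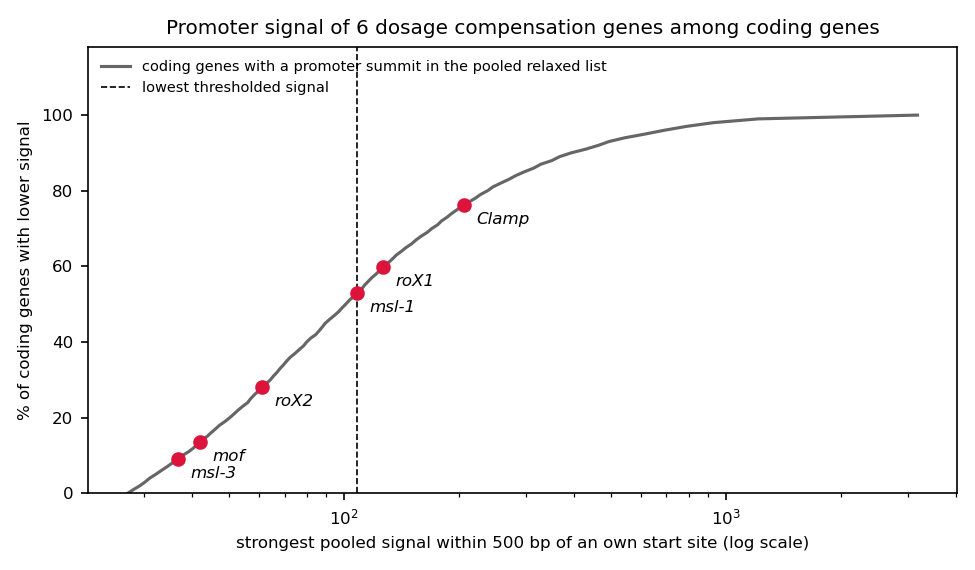
Strongest pooled signal at own start sites for the 6 of the 8 genes with a summit there. The curve gives, for the 7171 coding genes with a pooled relaxed summit within 500 bp of a start site, the percent with a lower signal (y axis) against the signal (x axis, log scale); points mark the genes, and the dashed line is the lowest thresholded signal. Clamp lies above 76.2% of these coding genes, roX1 above 59.8%, msl-1 above 53.0%, roX2 above 28.0%, mof above 13.5% and msl-3 above 9.05%. The roX genes are ncRNA genes, which the curve leaves out. Over the 985 ncRNA genes with a pooled relaxed summit there, the median was 68.1, with quartiles of 42.7 and 138.9.

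Where bound at its own start, Clamp was close to the middle of the bound coding genes. Over the 3366 coding genes with a thresholded summit there, the median of the strongest signal was 208.8, with quartiles of 144.8 and 354.3, and Clamp had 206.1. Over the 310 ncRNA genes with one, the median was 199.7 and the lower quartile 147.0, and roX1, at 126.4, was below both. The peaks 1 rank above and below that of Clamp had their nearest start sites at CG9674 and CG44428, and those around roX1 at lncRNA:CR44810 and Poxn, which encodes a paired-domain protein. Those around the strongest summit near mof were nearest to lncRNA:CR43424 and tou, a chromatin protein gene, and those around the strongest near roX2 to lncRNA:CR43883 and drl, which encodes a receptor tyrosine kinase. This likeness is in pooled signal alone, over 1 pooled value a peak.

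Each of the 6 thresholded summits lay within 500 bp of some start site, as did 44.0% of all thresholded summits. The 6 were picked for lying in or near a gene and the whole list was not, so these shares are of unlike sets. Each had a partner in both replicates, as did 99.3% of all. Each of the 6 held TAAT within 50 bp, on either strand, as did 75.0% of all thresholded summits and 51.1% of 23581 windows of 101 bp centred on annotated start sites. TAATTG, which contains TAAT, was at 2 of the 6, those nearest to Usp30 and CG16721, against 9.93% of summits and 6.12% of start sites. TAATTA, a palindromic homeodomain site that also contains TAAT, was at 0 of the 6, against 9.72% and 3.38%. The GA repeat GAGAG was at 0 of the 6, against 11.5% and 12.6%, and the longer GAGAGAGA, which contains it, at 0, against 0.914% and 0.611%. Of the 36 relaxed summits, 3 held GAGAG. They lay in the exons of roX1 and roX2 and at the start of GAA1, beyond the end of mof. The share with GAGAG over all pooled relaxed summits was not computed. The count of 3 therefore does not set the summits near these genes apart from other relaxed summits. The A and T content of the 6 windows ran from 50.5% to 75.2% with a median of 60.9%, against the median of 67.3% over all thresholded summits.

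Related genes were read from a list of 24: subunits of the NSL complex, which also contains MOF, regulators of msl-2 RNA, and proteins known to act with the MSL complex or on the male X. A thresholded summit lay within 500 bp of an own start site at 13 of the 24 (54.2%), against 24.1% of coding genes, with pooled signals from 129.6 to 2129.5 and a median of 201. Inside or within 5 kb it was 21 of the 24, against 56.2% of coding genes. The 24 genes were longer than most, with a median of 6620 bp and a range of 2069 to 59393 bp, against a median of 2166 bp over coding genes, and the part of length in either count was not tested. The list was drawn up with earlier results of these data known, which had named the Chro peak, and no test was made of its share.

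Of the 5 regulators of msl-2 RNA, 3 had a thresholded start summit. At Sxl, the master gene of female sex determination, whose protein blocks msl-2 translation in females, the summit lay 334 bp downstream of a start site with a pooled signal of 288 and replicate signals of 132.5 and 146.7. At Unr, which encodes the RNA-binding partner of SXL on msl-2 RNA, it lay 55 bp upstream with 310.4, and 133.6 and 167.3 in the replicates. At pAbp, the poly(A)-binding protein gene, the strongest of 2 lay 479 bp downstream of a start site and had 582.9, with 227.1 and 355.7 in the replicates. The genes how and Hrb27C had no thresholded start summit, with strongest pooled relaxed signals of 91.0 and 89.5 there.

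Of the 6 NSL subunit genes, 2 had a thresholded start summit: nsl1, with a pooled signal of 154.7 and replicate signals of 51.6 and 91.7, and Rcd5, with 151.4, and 68.9 and 85.0. MBD-R2, wds and Rcd1 had relaxed start summits of 82.0, 46.5 and 35.8, and dgt1 none.

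Of the 13 other proteins, 8 had one. Chro, which encodes a chromodomain protein of interbands, had the strongest at a pooled signal of 2129.5, rank 20, with 922.8 and 1207.4 in the replicates. Trl, the gene of GAGA factor, had 444, and 190.2 and 268.0 in the replicates, and the insulator protein gene BEAF-32 had 240.2, with 123.3 and 109.8. Ndf (201), Su(var)3-7 (188.6), pzg (144.2), psq (131.8) and the H3 kinase gene JIL-1 (129.6) followed in pooled signal. Top2, Nup153, Set2 and Iswi had relaxed start summits from 61.3 to 97.1, and Mgtor, the Megator nucleoporin gene, had none.

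**Figure D4:**
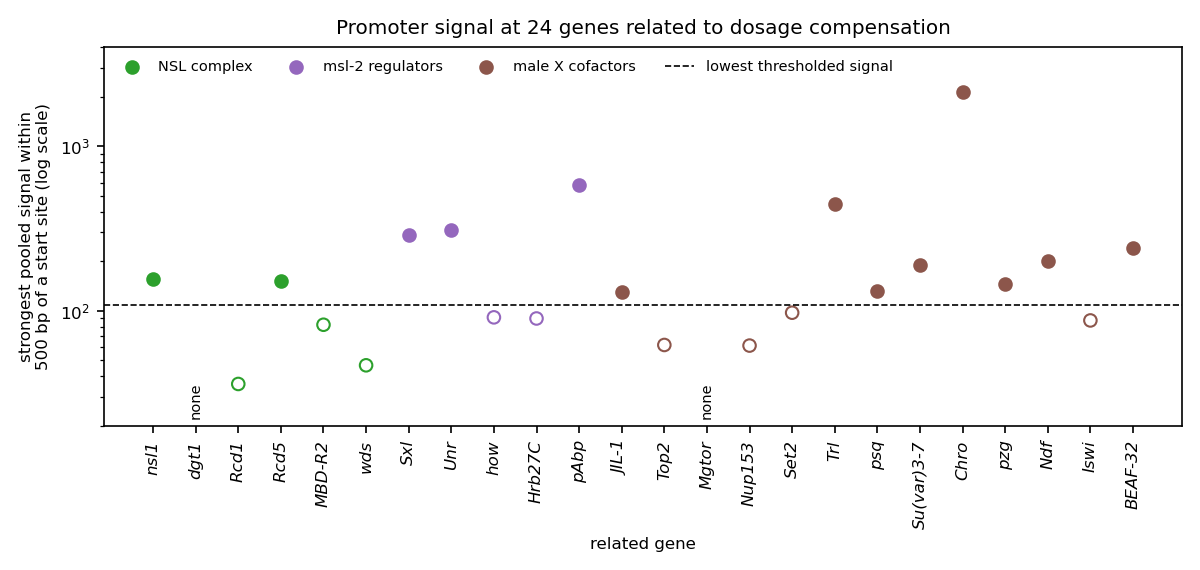
Strongest pooled signal within 500 bp of a start site (y axis, log scale) at each of the 24 related genes (x axis), coloured by group. Filled points are genes with a thresholded start summit, open points have a relaxed one only, and "none" marks dgt1 and Mgtor; 13 of the 24 points are filled, from 129.6 at JIL-1 to 2129.5 at Chro.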

How the data were processed

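Chromatin immunoprecipitation and sequencing was done on 2 biological replicates, with chromatin sonicated to 200 to 800 bp, per the labels. Per the deposited file listings, peaks were called against a control for each replicate and for both pooled, 30000 in each list, and 7223 were kept on the irreproducible discovery rate. No source used here names the aligner or the caller. The deposited signal per peak is the authors' value on an unstated scale. The deposited -log10 q-value was at its ceiling for 90.5% of thresholded peaks and was not used for ranking. Read numbers were not in the lists, so the depth is unknown, and no interval on signal was possible. The thresholded peaks were the 7223 strongest pooled peaks.

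The dm6 lists were set against Ensembl BDGP6 release 115 and RefSeq Release 6 sequence, which are the same build, and every peak lay within its arm. The dm3 lists were not used here. Positions count from 1. A summit counted for a gene when inside it or within 5 kb, and as at its start within 500 bp of an annotated start site. A replicate value is that of the strongest summit within 200 bp, whose own place can differ. Positions were classed from any annotated start site, transposable elements included. Background shares are over the coding or ncRNA genes of the 6 arms. Of the 24 related genes, 1 (Mgtor) was matched through an older symbol. The genes named were the 8, the related genes, the genes nearest to their summits and those of the peaks next in rank. The genes and lists were chosen with earlier results of these data known. No test was made: there was 1 group, and values stand beside their backgrounds. Alternatives were other distances, peak sets, intervals and windows, and each replicate left out. Python 3.11.15 with numpy 2.4.6 and matplotlib 3.10.9 was used. The counting was tested on simulated summits, and all 200 planted at start sites and 0 of 200 planted beyond 5 kb were counted.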

Additional observations from a re-analysis of the deposited data

How the results depend on the processing

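The 4 genes with a thresholded summit inside or within 5 kb became 7 within 10 kb and 8 with all pooled relaxed peaks. With all pooled relaxed peaks the shares were 82.7% of coding and 72.4% of ncRNA genes. At own start sites they were 51.4% and 30.2%. For the other settings below, no share over all genes was computed. Those counts therefore do not set the named genes apart from other genes. They were 3 within 2 kb, inside the gene only or with the stronger 3611 peaks, and 6 by overlap of the peak interval. Leaving out 1 replicate gave 4 to 6: without replicate 2, msl-1, msl-2 and mle entered and roX1 left. The 2 genes with a start summit became 1 with a distance of 200 bp (roX1), 1 with the stronger 3611 peaks (Clamp) and 6 with all pooled relaxed peaks, and leaving out 1 replicate gave 1 to 2, with roX1 lost without replicate 2. Of the related genes, 13 became 8 with the stronger 3611 peaks and 22 with all pooled relaxed peaks, and 12 to 13 with 1 replicate left out. The relaxed lists hold more peaks and the stronger set fewer by construction. By construction too, a longer distance or overlap of the interval can only add genes. A shorter distance or the gene alone can only remove them. Why the replicates differ at the summits that entered or left was not tested. Every strongest summit kept a partner in both replicates at 100 and 500 bp. With 100 bp on either side, GAGAG was still at 0 and TAAT at 6 of the 6 thresholded summits. No paired analysis was possible because there was 1 group. The lowest values of the relaxed lists, 27.2 pooled and 14.8 and 14.6 in the replicates, are set by the limit of 30000 peaks, so a summit under that limit is absent. A replicate partner also counts as absent where that replicate's summit lay more than 200 bp away. The pooled summit at 2R 5974758, near mle, had no replicate 2 partner, while replicate 2 had a summit of 55.4 at 2R 5974490.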
